A study of Saccharomyces cerevisiae with 22 samples.

Results

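The cytosolic ribosome of budding yeast is built from ribosomal RNA and a large set of proteins, most of them encoded by a pair of duplicated genes, called copies A and B here, whose products are identical or nearly so. Rap1, Fhl1, Ifh1 and Sfp1 drive these genes in growing cells, and their transcripts are known to fall when cells meet stress or run short of nutrients. The genes described here are those whose symbol on the array is RPL or RPS, a number and an optional A or B, where RPL stands for the large subunit and RPS for the small one. No measured value entered that choice. It gave 122 genes of 5449 measured in all, 70 of the large and 52 of the small subunit, and where a gene had several probe sets the brightest was read. A further 10 genes of the same naming pattern (RPL1A, RPL7B and RPS4A among them) had no probe set assigned to them alone and were not analysed here. Of the 122, 96 form 48 pairs with both copies measured, 17 are single-copy genes, and 9 are copies whose partner was not measured.

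Saccharomyces cerevisiae of a strain labelled 4741 was grown in rich medium, and total RNA was read on 22 Affymetrix arrays. Untreated cells gave 2 arrays. Heat at 40 °C and KCl at 0.8 M gave 1 array each at 30 and 45 min, and hydrogen peroxide at 0.66 mM, given to cells with no earlier stress and called naive peroxide here, gave 1 array at each of 15, 30, 45 and 90 min. After a first stress of 45 min, heat or KCl, cells were moved to the same dose of peroxide (15, 30, 45 and 90 min) or to rich medium without stress (15 and 45 min), again with 1 array per time. The untreated pair is therefore the only repeat of a condition. In the tests the times of a condition stand in for replicates, and no label says that arrays came from separate cultures. The p-values therefore cover the spread between arrays, not between cultures. In comparisons with untreated cells and of heat with KCl, that spread includes the change between the times of a condition. Mating type a genes (STE2, MFA1, MFA2, STE6 and BAR1) had log2 signals of 10.05 or more on every array, and the α-factor gene MF(ALPHA)1 stayed at 4.41 or less, below the background level of 5.33; the α genes STE3 and SAG1 read up to 8.14 and 8.85. URA3, LEU2 and MET17, which are commonly deleted in laboratory strains, stayed at 4.86 or less, and HIS3 was at 12.25 and 12.16 in untreated cells.

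The values are log2 signals normalised across arrays, so a change in total messenger RNA per cell cannot be seen, and fewer transcripts per cell cannot be told apart from a larger pool of other transcripts. All 122 genes were above background on all arrays. Their median untreated log2 signal was 13.93, against 10.18 for all genes, the highest of any gene on any array was 14.91, and 100 of the 122 were among the 200 brightest genes. Signals this close to the top of the scale may understate a fall; the 8 genes below 13 in untreated cells had a median log2 change of -1.07 in KCl and the other 114 one of -0.31, while in heat the medians were -0.60 and -0.61. Whether the scale had a part in these values was not tested. RPL41A, which encodes the smallest ribosomal protein, read 9.38 and 7.48 on the untreated arrays, a gap of 1.90 where the median gap was 0.04 and the next largest 0.39 (RPL39), and its ratios are given only as values. The log2 difference between the 3′ and 5′ ends of ACT1, a measure of RNA integrity, lay between 0.36 and 0.68 on all arrays.

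The whole set fell furthest at the first heat time and the last KCl time. As log2 ratios to the untreated mean, the median of the 122 genes was -0.87 at 30 min and -0.34 at 45 min of heat, and -0.17 at 30 min and -0.53 at 45 min of KCl. Heat thus had its deeper value early and KCl late: 121 genes were lower at 30 than at 45 min of heat, where 41.3% of all genes were, and 116 were lower at 45 than at 30 min of KCl, where 49.8% of all genes were. In naive peroxide the medians at 15, 30, 45 and 90 min were -0.05, -0.13, -0.11 and -0.01. The medians of all genes on these 4 arrays were -0.06, -0.05, -0.02 and 0.01. For the 122 genes the value at 30 min was close to that at 30 min of KCl. After heat, cells in peroxide had medians of -0.21, -0.09, -0.03 and 0.02 at those 4 times, and cells in rich medium -0.13 and -0.06 at 15 and 45 min. After KCl, cells in peroxide had medians of -0.29, -0.18, -0.15 and -0.05, and cells in rich medium -0.32 at 15 min and 0.08 at 45 min. Both transfers out of KCl thus began near -0.3, and only the later rich-medium array among these 6 had a median above 0.

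**Figure D1:**
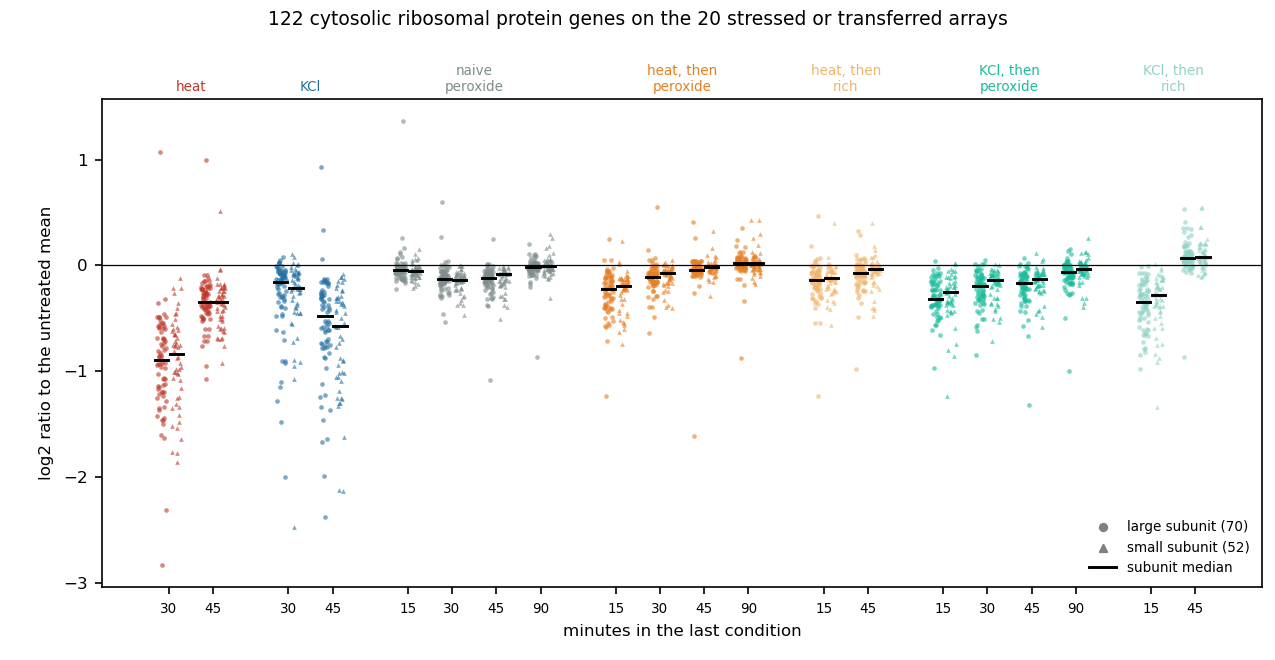
Log2 ratio to the untreated mean (vertical axis) of each of the 122 genes on the 20 stressed or transferred arrays, ordered by condition and by minutes (horizontal axis); circles are large-subunit genes, triangles small-subunit genes, and bars the medians of each subunit, 1 array per column. The medians lie lowest at 30 min of heat (-0.89 for the large and -0.84 for the small subunit) and at 45 min of KCl (-0.48 and -0.58), and the 2 subunits stay within 0.10 of each other on every array.

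Large- and small-subunit genes moved together. The large-subunit median minus the small-subunit median ranged from -0.07, 15 min after transfer from KCl to rich medium, to 0.10, at 45 min of KCl. Over the 2 heat arrays it averaged -0.03, and over the 2 KCl arrays 0.08. These differences are small beside the falls themselves, and they are given as descriptions with no test.

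Heat lowered ribosomal protein transcripts broadly. Against untreated cells 60 of the 122 genes fell and 1 rose by limma at an adjusted p under 0.05, with a median log2 change of -0.61; over all 5449 genes 22.4% fell and 27.5% rose, with a median of 0.07. By subunit, 33 of 70 large-subunit and 27 of 52 small-subunit genes fell. Both heat arrays lay below both untreated arrays for 118 of the 122, where 38.7% of all genes did so. At an unadjusted p under 0.05 the count was 99 of 122, against 3131 of all 5449 genes. The number of calls rests on single arrays: it was 3 to 7 when either untreated array or the 30 min heat array was left out, 39 when either naive peroxide array was, and 105 without the 45 min heat array, while the median change stayed between -0.87 and -0.34.

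Among the genes that passed in heat the deepest fall was that of RPL9A, 1 of the 2 genes for a large-subunit protein near the base of the stalk. Its log2 signals were 13.58 and 13.56 in untreated cells and 11.25 and 12.50 at 30 and 45 min of heat. The heat arrays lay well below the untreated pair, and the change of -1.69 ± 0.35 (SE) was 3.24-fold (limma, adjusted p = 0.00665). It stayed below 0.05 with any 1 array left out. RPL41A was lower still, at -1.89 ± 0.99, without passing (limma, adjusted p = 0.147).

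Next came genes of the small subunit. RPS0A, for a protein needed to finish small-subunit ribosomal RNA, read 13.92 and 13.91 untreated and 12.06 and 13.15 in heat, a 2.48-fold fall (log2 -1.31 ± 0.36, adjusted p = 0.0210 by limma). RPS17B, for a protein of the small-subunit head, went from 13.76 and 13.84 to 12.16 and 12.88, a 2.43-fold fall (log2 -1.28 ± 0.36, adjusted p = 0.0223 by limma). RPS10B, also of the head, went from 12.40 and 12.34 to 10.89 and 11.68, a 2.12-fold fall (log2 -1.09 ± 0.28, adjusted p = 0.0166 by limma). In all 3 the groups did not overlap, and the 30 min array was the lower. RPS22A, for a protein that binds the central domain of small-subunit ribosomal RNA, fell by 1.14 ± 0.38 on the log2 scale, and RPS1A, for a protein of the platform side, by 1.07 ± 0.29 (limma, adjusted p = 0.0401 and 0.0200). For the large subunit, RPL13A fell by 1.16 ± 0.33 on the log2 scale and RPL4B, for a protein that reaches into the exit tunnel, by 1.12 ± 0.32 (limma, adjusted p = 0.0225 and 0.0222). Except for RPL9A, each of these falls lost its call when either untreated array or the 30 min heat array was left out, and RPS22A also without either naive peroxide array.

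A single gene rose in heat. RPL15B, 1 of the 2 genes for a protein deep in the large subunit, read 10.54 and 10.50 in untreated cells and 11.59 and 11.51 in heat. This 2.05-fold rise (log2 1.03 ± 0.14, adjusted p = 0.00139 by limma) kept its call with any 1 array left out. Its partner RPL15A went the other way, from 13.70 and 13.71 to 12.53 and 12.98, a 1.92-fold fall (log2 -0.94 ± 0.17, adjusted p = 0.00405 by limma).

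Fewer genes passed in KCl than in heat, and some of those fell by more. This order of the counts was not kept with either untreated array left out. Against untreated cells 19 of the 122 fell by limma at an adjusted p under 0.05 and 0 rose, with a median log2 change of -0.33; of all genes 26% fell. At an unadjusted p under 0.05 the count was 31 of 122, against 3383 of all 5449 genes. By subunit 11 of 70 and 8 of 52 genes fell, and both KCl arrays lay below both untreated arrays for 105 genes, where 39.3% of all genes did so. All 19 were members of measured pairs (19 of 96), while 0 of 17 single-copy genes and 0 of 9 genes with an unmeasured partner passed. Those 9 were read by probe sets that can also match similar sequences. On a probe set of its own, 1 of them, RPL18B, was at -2.11 ± 0.35 in KCl (limma, adjusted p = 0.00191). The single-copy genes had a median of -0.15, from RPS15 at -0.35 to RPL10 at 0.07, and 0 of them had an unadjusted p under 0.05. The paired genes had a median of -0.44. The 8 genes with untreated signals below 13 held 4 of the calls. No single-copy gene was among them, the dimmest being RPL39 at 13.36. Copy number and signal were not separated here. Leaving out 1 array moved the 19 calls to between 9 and 40; the count was 9 or 10 without the 45 min KCl array or either untreated array, 38 without the 30 min KCl array, and 40 without either heat array.

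RPS9A had the deepest fall in KCl. It encodes a protein that binds small-subunit ribosomal RNA early in assembly, and it read 12.18 and 12.10 untreated against 9.67 and 10.00 at 30 and 45 min of KCl. This was a 4.94-fold fall (log2 -2.30 ± 0.19, adjusted p = 0.000104 by limma). RPL22B, for a large-subunit protein that yeast can live without, went from 12.65 and 12.55 to 10.60 and 10.22, a 4.56-fold fall (log2 -2.19 ± 0.19, adjusted p = 0.000122 by limma). In both genes the KCl arrays were far below the untreated pair at both times.

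Other genes of the large subunit followed. RPL27B read 13.54 and 13.48 untreated and 12.03 and 12.04 in KCl, a 2.77-fold fall (log2 -1.47 ± 0.26, adjusted p = 0.00279 by limma). RPL9B read 12.69 and 12.76 untreated and 11.80 and 10.73 in KCl, a 2.75-fold fall (log2 -1.46 ± 0.34, adjusted p = 0.00900 by limma). For these 2 genes the KCl and untreated arrays did not overlap; RPL27B was equally low at both times and RPL9B was lower at 45 min. RPL33B fell by 1.26 ± 0.17 and RPL36A by 1.25 ± 0.25 on the log2 scale (limma, adjusted p = 0.000799 and 0.00423). RPL13A fell by 1.29 ± 0.33 (adjusted p = 0.0129 by limma), as it did in heat. RPS26B, for a small-subunit protein at the exit of the messenger RNA channel, read 13.82 and 13.80 untreated and 12.92 and 11.69 in KCl, a fall of 1.51 ± 0.46 on the log2 scale (limma, adjusted p = 0.0261). RPL13A and RPS26B lost their calls without the 45 min KCl array or either untreated array, and the other 6 kept theirs with any 1 array left out.

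Naive peroxide moved none of the 122 genes past the threshold. Compared at 30 and 45 min with untreated cells, limma called 0, with a median log2 change of -0.13, where 18.4% of all genes passed. Unadjusted p-values under 0.05 numbered 0, against 1956 over all 5449 genes. The spread in this fit is pooled with the heat and KCl arrays, whose 30 and 45 min values lay apart. The 0 calls therefore do not show an absence of change. Both peroxide arrays nevertheless lay below both untreated arrays for 98 genes, where 40.4% of all genes did. The lowest were RPS10B at -0.40 ± 0.28, RPL22B at -0.38 ± 0.19 and RPS14B at -0.38 ± 0.32 on the log2 scale (limma, adjusted p = 0.348, 0.192 and 0.437). RPL15B was the highest, at 0.26 ± 0.14 (limma, adjusted p = 0.234), with RPL10 at 0.01 and RPL4A at -0.01.

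Heat and KCl were then compared directly, since each gene's value in the 2 stresses shares the untreated arrays. By limma 3 of the 122 genes were lower in heat than in KCl and 6 were higher, against 15.2% and 15.4% of all genes. Unadjusted p-values under 0.05 numbered 25, against 2366 over all 5449 genes. RPL9A (-1.51 ± 0.35, adjusted p = 0.0185), RPL15A (-0.89 ± 0.17, adjusted p = 0.00937) and RPS20 (-0.47 ± 0.14, adjusted p = 0.0417), which encodes a protein of the small-subunit head, were the 3 lower in heat. RPS9A was 4.53-fold higher in heat than in KCl (log2 2.18 ± 0.19, adjusted p = 0.000779 by limma), RPS14B 2.55-fold (1.35 ± 0.32, adjusted p = 0.0198) and RPL22B 2.50-fold (1.32 ± 0.19, adjusted p = 0.00410). RPL9B (1.12 ± 0.34, adjusted p = 0.0446), RPL15B (0.84 ± 0.14, adjusted p = 0.00645) and RPL33B (0.83 ± 0.17, adjusted p = 0.0119) were the other 3 higher in heat. The calls of RPS20 and RPL9B were lost without any 1 of 7 of the 8 arrays, RPL9A lost its call without the 30 min KCl array, and RPS14B without the 45 min heat array. Leaving out that same heat array raised the 9 calls to 26.

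The copies of some pairs moved by different amounts. To test this, the log2 change of copy A minus that of copy B was fitted for all 48 pairs together with all genes. In heat 9 pairs differed by limma, with copy A the lower in 4 and copy B in 5; among the 5449 genes and 48 differences together, 49.7% passed. In KCl 19 pairs differed, with copy A the lower in 8 and copy B in 11, where 56% of genes and differences passed. Both counts of pairs are below those shares. Of the 3 pairs that passed in both stresses the same copy was the lower in 2, and the lower copy changed in 1, RPL9. Between heat and KCl the difference itself changed for 13 pairs, where 30.6% passed. In naive peroxide 0 pairs differed by limma (0 also at an unadjusted p under 0.05). The heat count was 1 without either untreated array or the 30 min heat array and 19 without the 45 min heat array, and the KCl count 9, 10 and 12 without untreated array a, untreated array b and the 45 min KCl array.

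**Figure D2:**
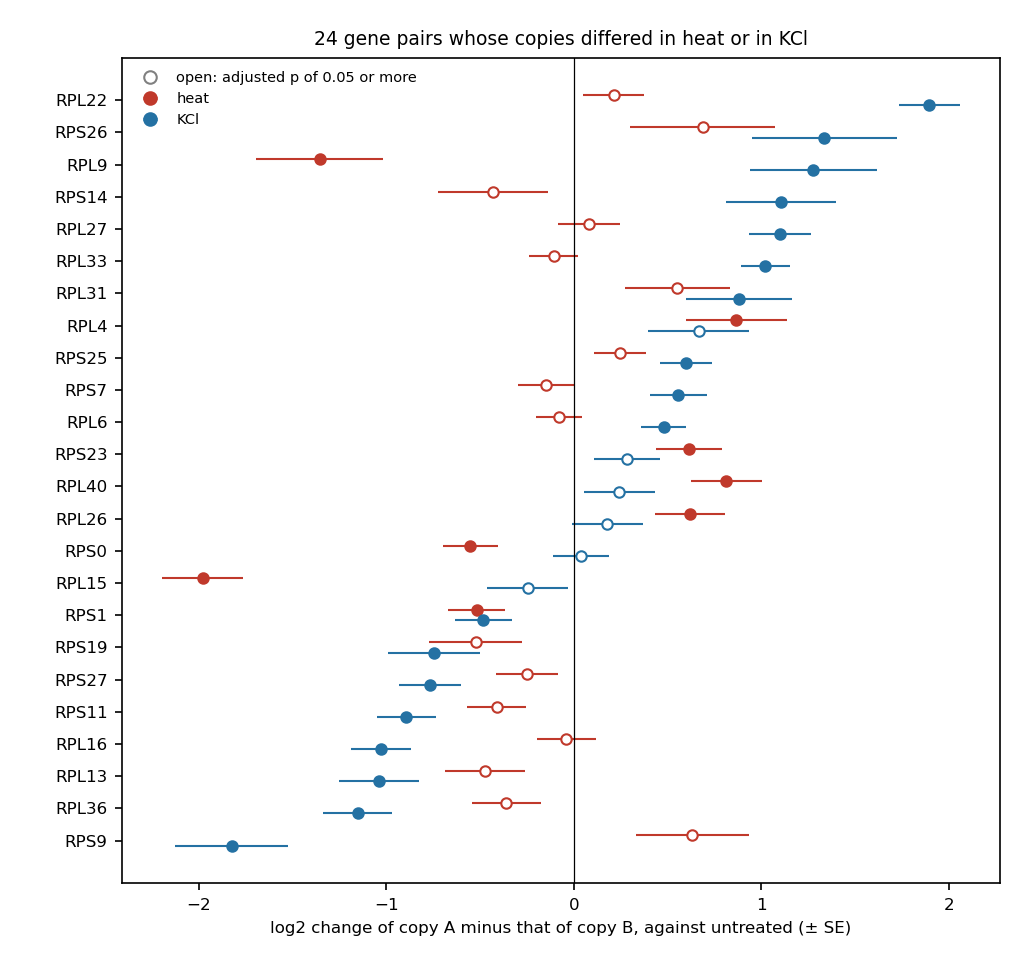
Log2 change of copy A minus that of copy B against untreated cells (horizontal axis, ± SE from limma) for 24 of the 25 pairs that passed in heat (red) or in KCl (blue), ordered by the KCl value; filled points have an adjusted p under 0.05. RPL9 lies at -1.35 in heat and at 1.28 in KCl, RPL15 at -1.98 in heat, and RPS9 at -1.82 and RPL22 at 1.89 in KCl.

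In the RPL9 pair the copy that fell changed with the stress. RPL9A was at log2 ratios of -2.32 and -1.07 at 30 and 45 min of heat and at -0.08 and -0.28 in KCl. RPL9B was at -0.59 and -0.09 in heat and at -0.92 and -1.99 in KCl. The A minus B difference was -1.35 ± 0.34 in heat and 1.28 ± 0.34 in KCl (limma, adjusted p = 0.0140 and 0.0150), and it differed between the stresses by -2.63 (adjusted p = 0.00321), a call kept with any 1 array left out. Each stress alone lost its RPL9 call without either untreated array or its own deeper array (30 min for heat, 45 min for KCl). After KCl, RPL9B was at -0.97 and RPL9A at -0.39 after 15 min of peroxide, and at -0.98 and -0.45 after 15 min of rich medium. Heat-treated cells had RPL9A at -0.40 and RPL9B at 0.05 after 15 min of peroxide, so the copy that was lower during the first stress was also the lower on the first array after transfer.

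The RPS9 and RPL22 pairs differed in KCl. RPS9A was at -2.47 and -2.14 in KCl and RPS9B at -0.23 and -0.73, a difference of -1.82 ± 0.30 (limma, adjusted p = 0.00196). RPL22B was at log2 signals of 10.60 and 10.22 in KCl, against 12.65 and 12.55 untreated, and RPL22A at 13.92 and 13.46, against 14.00 and 13.97, a difference of 1.89 ± 0.16 (limma, adjusted p = 0.000124). In heat neither pair passed, at 0.63 ± 0.30 and 0.21 ± 0.16 (limma, adjusted p = 0.119 and 0.307), and both differences changed between heat and KCl, by 2.46 and -1.68 (adjusted p = 0.00272 and 0.00115). In naive peroxide at 15, 30, 45 and 90 min RPS9A was at -0.20, -0.47, -0.07 and 0.30, below the untreated mean at 3 times and above it at the last. It was at 0.40 on both arrays of rich medium after heat and at 0.55 at 45 min of rich medium after KCl, where RPL22B was at 0.53.

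RPL15 was the pair that differed most in heat. RPL15A was at -1.17 and -0.72 and RPL15B at 1.07 and 0.99, opposite directions at both times, and the difference of -1.98 ± 0.22 (limma, adjusted p = 0.000608) kept its call with any 1 array left out. In KCl it was -0.25 ± 0.22 (limma, adjusted p = 0.359). RPL15B stayed above the untreated mean on all 6 arrays after transfer from heat, between 0.17 and 0.55, and lay between -0.28 and -0.02 on 5 of the 6 arrays after KCl, with 0.34 on the other.

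Of the remaining pairs with the largest differences, all 4 passed in KCl and 0 in heat. RPS26B was at -0.89 and -2.12 in KCl while RPS26A was at -0.11 and -0.23 (difference 1.34 ± 0.39, adjusted p = 0.0215 by limma). RPL36A was at -1.29 and -1.22 while RPL36B was at -0.06 and -0.15 (-1.15 ± 0.18, adjusted p = 0.00165). RPL27B, at -1.48 and -1.46, fell below RPL27A, at -0.17 and -0.57 (1.10 ± 0.16, adjusted p = 0.00123). In RPS14, whose protein binds the transcript of RPS14B and limits its splicing, copy B was at -0.68 and -1.62 and copy A at 0.01 and -0.11 (1.11 ± 0.29, adjusted p = 0.0150 by limma). RPS14B also had the lowest value of any of the 122 genes after transfer from KCl, -1.34 at 15 min of rich medium, with -1.23 at 15 min of peroxide; it was at 0.56 at 45 min of rich medium and 0.26 at 90 min of peroxide. RPS26 lost its KCl call without the 45 min KCl array or either untreated array, and RPS14 without the 45 min KCl array or untreated array a.

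**Figure D3:**
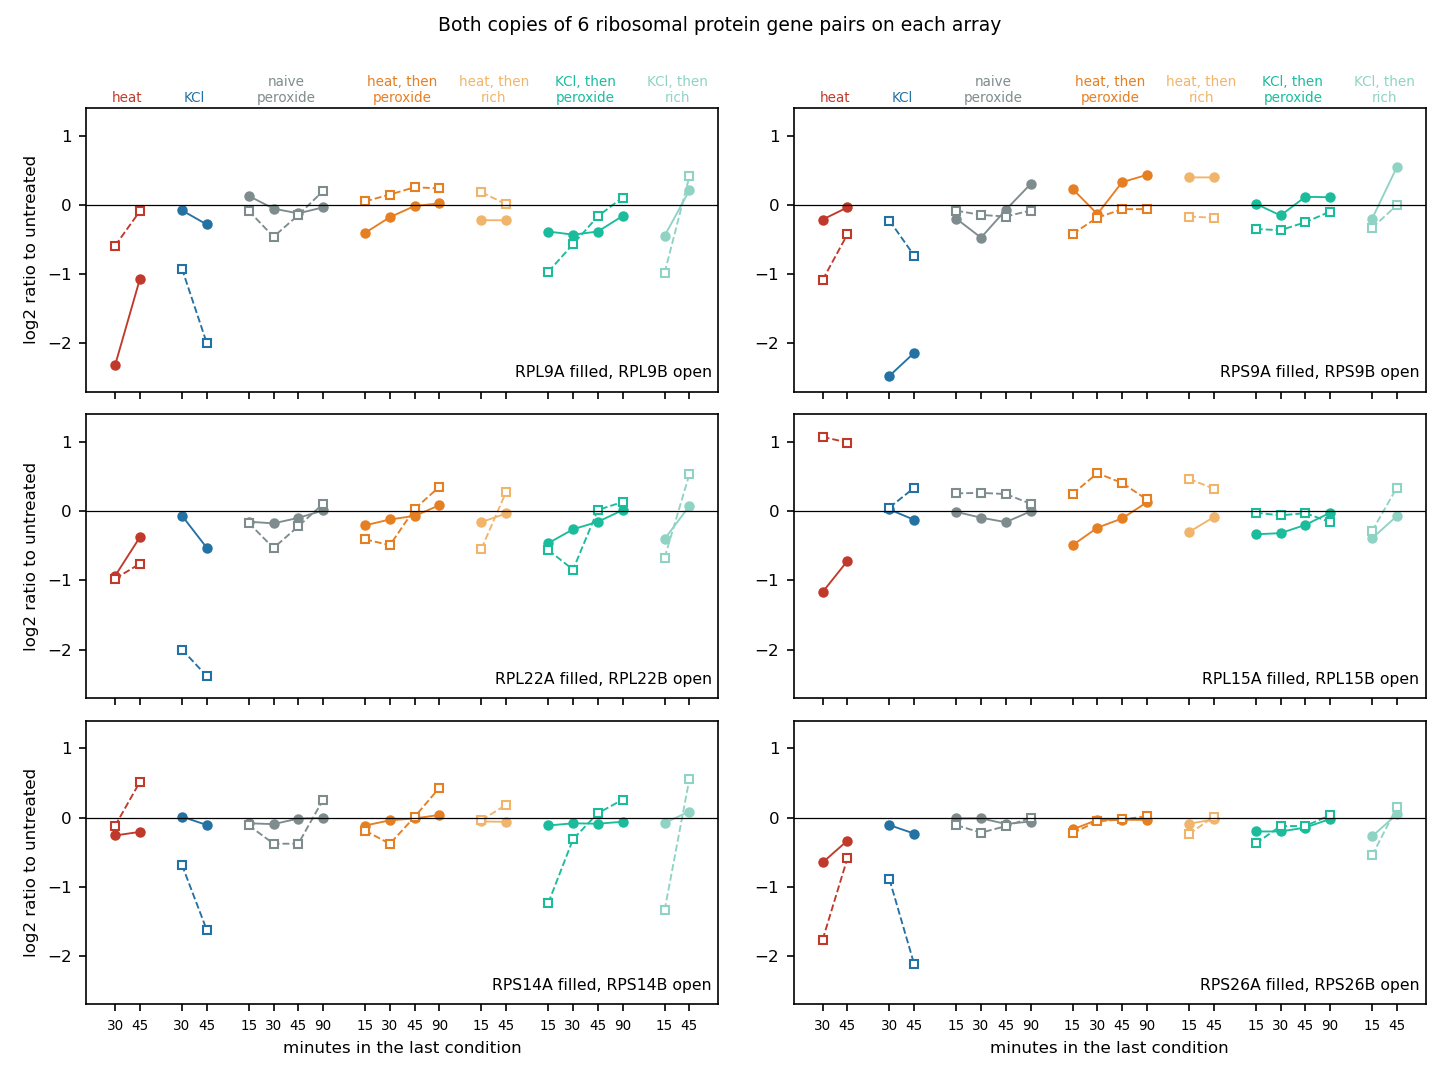
Log2 ratio to the untreated mean (vertical axis) of copy A (filled, solid line) and copy B (open, dashed line) of 6 pairs on the 20 stressed or transferred arrays, by condition and minutes (horizontal axis), 1 array per point. RPL9A is the lower copy in heat (-2.32 at 30 min) and RPL9B in KCl (-1.99 at 45 min), RPS9A and RPL22B fall in KCl, and RPL15B lies above 0 throughout heat and the arrays after it.

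What a probe set can resolve limits these comparisons. Of the 122 genes 100 were read by a probe set designed for a single gene (suffix _at) and 22 by one whose probes can also match similar sequences (20 with suffix _s_at, 2 with _x_at); both copies had the first kind in 35 of the 48 pairs. For 20 genes both kinds were present. Their log2 changes differed by a median of 0.23 in heat and 0.16 in KCl, and by as much as 1.91. That largest gap was at RPL18B: in KCl its own probe set gave -2.11 ± 0.35 (limma, adjusted p = 0.00191) and the shared one, which was the brighter and was used above, -0.20. RPS18B gave -1.01 ± 0.33 and -0.21 in KCl (limma, adjusted p = 0.0344 for the first). With shared probe sets left out, 6 pairs passed in heat, 23 in KCl and 19 between the stresses, against 9, 19 and 13 with them. Shares over all genes and differences, 49.7%, 56% and 30.6% with them, are not given for the reduced set. These counts are therefore not read as a result about the pairs. The pairs RPS18 (0.80, adjusted p = 0.0150), RPS24 (0.54, adjusted p = 0.0115), RPL11 (0.41, adjusted p = 0.0233) and RPL14 (0.39, adjusted p = 0.0377) then passed in KCl by limma.

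**Figure D4:**
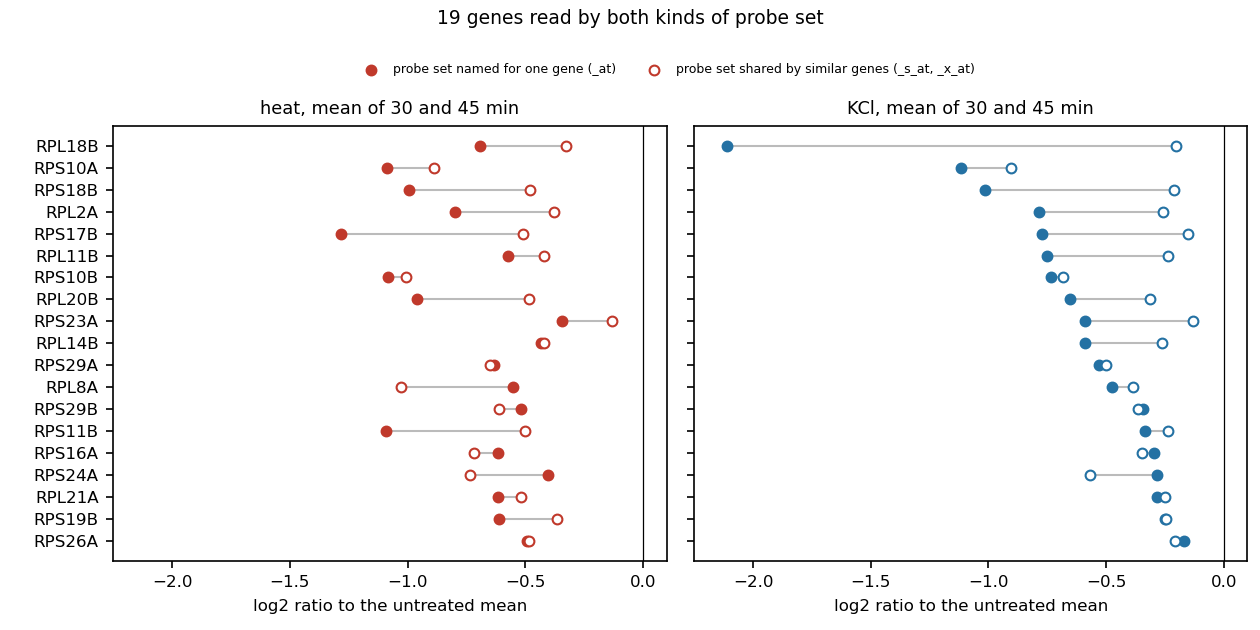
Mean log2 ratio to untreated (horizontal axis) in heat (left) and KCl (right) of 19 of the 20 genes with 2 probe sets; filled points are the probe set designed for the single gene and open points the one that can match similar genes. RPL18B in KCl has -2.11 on the first and -0.20 on the second.

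Members with a shared place in the ribosome were described by the same calls, beside 22.4% of all genes falling in heat and 26% in KCl. In the small-subunit head, which holds the messenger RNA entry side and the contacts to initiation factors, 11 of 21 measured genes fell in heat, with a median of -0.61, and 1 of 21 in KCl, with a median of -0.30. Around the rim of the exit tunnel, where nascent chains leave and chaperones dock, 3 of 11 fell in heat and 1 in KCl, with medians of -0.68 and -0.44. RPL26B fell there in heat (-1.01 ± 0.29, adjusted p = 0.0241 by limma), RPL31B in KCl (-1.18 ± 0.39, adjusted p = 0.0350), and RPL39, a small protein lining the tunnel, did not pass in either (-0.68 and -0.24). Both genes of the stalk base, RPL12A and RPL12B, fell in heat (-0.98 ± 0.29 and -0.67 ± 0.20, adjusted p = 0.0265 and 0.0269 by limma) and neither passed in KCl. These values lie close to those of the whole set.

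Among proteins that join the large subunit late, RPL24A and RPL40B fell in heat (-0.68 and -1.02 on the log2 scale) and RPL24B in KCl (-0.57 ± 0.18, adjusted p = 0.0304 by limma). RPL10, among the last to be placed, had the second highest mean over the 20 arrays of all 122 genes, at -0.02; its lowest value was -0.49 at 30 min of heat and its highest 0.11. RPL40A, RPL40B and RPS31 encode ribosomal proteins fused to ubiquitin, so that they also supply ubiquitin. RPL40B fell by 1.02 ± 0.25 in heat while RPL40A was at -0.20 ± 0.14 (limma, adjusted p = 0.0122 and 0.264), and the copies differed (0.81, adjusted p = 0.0106); RPS31 was at -0.37 in heat and -0.07 in KCl without passing. For the 5S RNA, RPL5, RPL11A and RPL11B bring it into the large subunit as a complex, and 1 of the 3 fell in heat and 0 in KCl.

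Some ribosomal proteins limit their own transcripts. Of 4 such genes, RPL30 was at -0.39 in heat and -0.15 in KCl and RPS28B at -0.40 and -0.22, without passing in either. RPL22B fell in both (-0.87 ± 0.19 in heat, adjusted p = 0.00753, and -2.19 in KCl), and RPS14B was at 0.20 in heat (adjusted p = 0.629) and fell by 1.15 ± 0.32 in KCl (adjusted p = 0.0182 by limma). The highest means over the 20 arrays were those of RPL15B at 0.27, RPL10 at -0.02 and RPS23A, for a protein of the decoding centre read by a shared probe set, at -0.03. The lowest were RPL41A at -0.76, RPS10B at -0.53 and RPL22B at -0.45.

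Genes around the ribosome were set beside the 122, from lists chosen with earlier results of these data known. Over all genes 22.4% fell and 27.5% rose in heat, and 26% fell and 30.2% rose in KCl. Of the 5 stalk P proteins, which recruit translation factors, RPP2A and RPP2B fell in heat (-0.35 ± 0.12 and -0.55 ± 0.18, adjusted p = 0.0494 and 0.0392 by limma), RPP0, RPP1A and RPP1B were at -0.33, -0.62 and -0.45 without passing, and 0 of 5 passed in KCl. The ribosome-bound proteins ASC1 and STM1 fell in heat by 0.47 and 0.51 on the log2 scale and did not pass in KCl. All 20 listed 60S and all 20 listed 40S assembly factors fell in both stresses, with medians of -2.50 and -2.17 in heat and -3.05 and -2.90 in KCl. These medians lie well below the -0.61 and -0.33 of the ribosomal proteins they assemble, whose signals near the top of the scale may understate a fall. Of 11 chaperones dedicated to single ribosomal proteins 10 fell in heat and 11 in KCl, with medians of -2.34 and -2.32. Among 6 factors that meet the nascent chain, such as the Hsp70 genes SSB1 and SSB2, 3 fell in heat and 2 in KCl. The 7 measured elongation factors had medians of -0.03 and -0.06, with 2 falling in heat and 1 in KCl. Of 68 mitochondrial ribosomal protein genes 16 rose and 0 fell in heat, and 8 rose and 23 fell in KCl, with medians of 0.26 and -0.24. The 16 of 68 that rose in heat are close to the share over all genes.

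Genes for regulators of this set moved in both directions. RAP1 and FHL1, whose proteins bind ribosomal protein promoters, fell in heat by 0.42 ± 0.12 and 0.72 ± 0.15 on the log2 scale (limma, adjusted p = 0.0249 and 0.00782), and in KCl by 1.07 and 0.59 (adjusted p = 0.000394 and 0.0147). IFH1, the coactivator that joins Fhl1, fell in KCl (-1.13 ± 0.24, adjusted p = 0.00609 by limma) and was at -0.52 in heat without passing (adjusted p = 0.109). CRF1, a corepressor of the same promoters, rose by 1.65 ± 0.16 in heat and 3.56 ± 0.16 in KCl (limma, adjusted p = 0.000442 and 2.3e-05), from untreated signals of 4.82 and 4.75 that lay under the background level, so these sizes are uncertain. SFP1 rose in both, by 0.44 (adjusted p = 0.0275 in heat and 0.0260 in KCl by limma), the kinase gene SCH9 fell in KCl (-0.98, adjusted p = 0.00308) and did not pass in heat, and HMO1 and ABF1 passed in neither. Of these 8 genes FHL1 also fell in naive peroxide (-0.73, adjusted p = 0.0224 by limma).

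**Figure D5:**
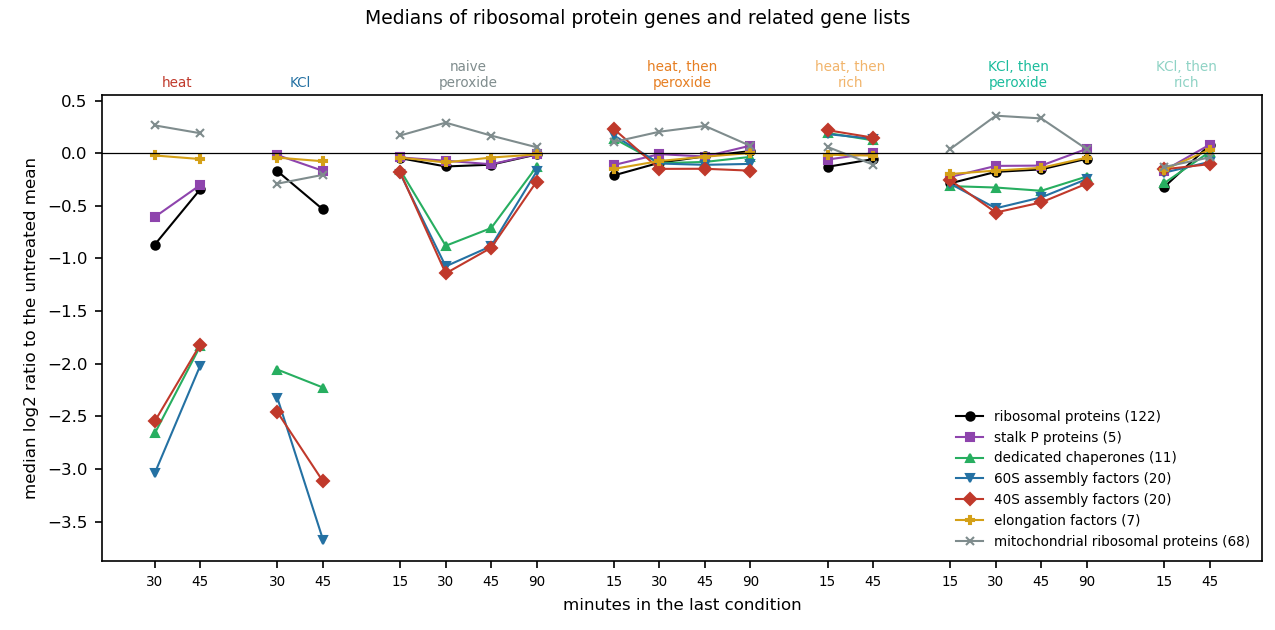
Median log2 ratio to the untreated mean (vertical axis) on each of the 20 arrays (horizontal axis, condition and minutes) for the 122 ribosomal protein genes and 6 related lists, with the number of genes in brackets. The ribosomal proteins reach -0.87 at 30 min of heat where the 60S assembly factors reach -3.04, and the assembly factors reach -1.07 and -1.14 at 30 min of naive peroxide where the ribosomal proteins are at -0.13. Ribosomal protein signals lie near the top of the scale, which may understate their falls.

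Priming was tested by comparing primed with naive cells in the same peroxide dose, over 4 matched times with time in the model. After heat, 2 of the 122 genes had an unadjusted p under 0.05 by limma, against 1691 of all 5449. At the adjusted threshold limma called 0, where 3.34% of all genes passed, and the median difference was -0.00. The count was 2 without the 90 min naive array and 1 without the 90 min heat-primed array. Heat-primed cells were lower at all 4 times for 4 genes and higher for 8, where 17.8% of all genes were lower at each time. RPS9A had the largest positive difference, 0.43, 0.34, 0.40 and 0.13 at the 4 times (0.33 ± 0.09, adjusted p = 0.0664 by limma), and RPL9B (0.30) and RPS17B (0.17) came next. The most negative were RPL41A (-1.09), RPL39 (-0.27) and RPL4B (-0.21), and all 6 missed the threshold. Heat-primed cells had left heat 15 to 90 min before they were read. The remainder of the heat change and the response to peroxide therefore cannot be told apart in this comparison.

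After KCl, limma also called 0 of the 122 genes, where 0.147% of all genes passed, with a median difference of -0.09. Unadjusted p-values under 0.05 numbered 16, against 1019 over all 5449 genes. In peroxide, KCl-primed cells were lower than naive cells at all 4 times for 57 genes and higher for 1, where 14.4% of all genes were lower each time. RPL4B differed by -0.78, -0.51, -0.31 and -0.20 at 15, 30, 45 and 90 min, and RPL39 by -0.48, -0.59, -0.28 and -0.32 (-0.45 ± 0.13 and -0.42 ± 0.12 over the times, adjusted p = 0.144 and 0.148 by limma). Both stayed lower in primed cells at each time without passing the adjusted threshold. RPL41A was at -0.79, and at the other end were RPS9A at 0.13, RPL43B at 0.07 and RPL23B at 0.05. Naive cells had come from unstressed medium while primed cells had left KCl 15 to 90 min before they were read, so the remainder of the KCl change and the response to peroxide cannot be told apart in this comparison.

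Peroxide was next compared with rich medium after the same first stress, at 15 and 45 min. After heat, limma called 0 of the 122 genes, where 0.165% of all genes passed, with a median of -0.03. Unadjusted p-values under 0.05 numbered 0, against 230 over all 5449 genes. Cells in peroxide were lower at both times for 32 genes, where 33.1% of all genes were. RPL41A (-0.32), RPL26B (-0.21) and RPS14B (-0.16) were the lowest and RPS17B (0.12), RPL20B (0.08) and RPL38 (0.06) the highest, each with an adjusted p of 0.994. After KCl, limma called 0 against 0.165% of all genes, with a median of -0.09, and 42 genes were lower at both times where 30.6% of all genes were. Unadjusted p-values under 0.05 numbered 0, against 400 over all 5449 genes. RPS10B (-0.43), RPS22A (-0.33) and RPL9B (-0.28) were the lowest, and RPS21A and RPS23B were among the highest, at 0.02 and 0.01. The 2 times differed after either stress, in opposite order. After KCl 45 genes were lower in peroxide at 15 min, with a median difference of 0.03, and 118 at 45 min, with a median of -0.25, where 49.1% and 48.4% of all genes were lower. After heat 106 were lower at 15 min, with a median of -0.09, and 43 at 45 min, with a median of 0.04, where 57.7% and 57.3% of all genes were. Each is 1 array against 1, with no replicate check.

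Cells returned to rich medium were set against untreated cells over both times. After heat, limma called 0 of the 122 genes and 0% of all genes, with 0 members and 288 genes in all at an unadjusted p under 0.05; after KCl it called 0 and 0%, with 0 members and 405 genes at an unadjusted p under 0.05. The medians were -0.09 and -0.12, and after KCl 1 gene passed without the 45 min array. After heat RPL41A (-1.11), RPS10B (-0.49) and RPL39 (-0.42) were lowest and RPL15B (0.40), RPS9A (0.40) and RPL9B (0.10) highest. After KCl RPL41A (-0.76), RPS10A (-0.47) and RPL39 (-0.43) were lowest and RPS9A (0.17), RPS23A (0.11) and RPS31 (0.10) highest. The 2 times lay apart after KCl. At 15 min 118 of the 122 genes were below both untreated arrays, where 54.4% of all genes were. At 45 min 12 were below both, where 52.9% of all genes were. The median of the 122 genes at 45 min was 0.08, where that of all genes was -0.065. RPL39 had read 13.55 and 13.16 in the untreated pair, a gap close to its change in size.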

How the data were processed

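Per the submitters' processing notes, the authors made the deposited log2 expression values with RMA; its version and settings are not given in the sources used here. Their second deposited table, log2 fold changes, served only as an alternative. The array annotation assigns 5498 of the 10928 probe sets to a single S. cerevisiae gene; keeping the brightest for each left 5449 genes. Background is the 95th percentile of probe sets that name no S. cerevisiae gene. Precision is bounded by how many arrays there are, beside the limits of signal and of probe sets given with the results.

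Groups came from the labels. The fits used limma 3.58.1 (R 4.3.3; lmFit, eBayes) with Benjamini-Hochberg adjustment over all genes; heat, KCl and naive peroxide at 30 and 45 min shared 1 fit with the untreated arrays, matched-time comparisons had time as a term, and A minus B differences were adjusted with all genes. The fit was tested on simulated data. Members, lists and tests were chosen with earlier results of these data known. Named were, per comparison against untreated, the 8 largest called falls and every called rise; elsewhere the 5 largest called each way, or, with none called, the 3 largest differences; the 8 pairs with the largest difference in heat or KCl; the 3 highest and lowest means over the 20 arrays; and members of the listed groups. Alternatives tried were other normalizations, a filter on dim genes, a trended robust variance, other probe-set rules, the authors' fold-change table, other times or no time term, and each array left out. Sequences were not used here. Some genes that the rule names are not reported here.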

Additional observations from a re-analysis of the deposited data

Results flagged for a closer look

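In heat against KCl, 9 genes differed by the test of the difference itself: RPL9A (-1.51), RPL15A (-0.89) and RPS20 (-0.47) were lower in heat, and RPL33B (0.83), RPL15B (0.84), RPL9B (1.12), RPL22B (1.32), RPS14B (1.35) and RPS9A (2.18) higher, as log2 differences. For 13 pairs the A minus B difference changed between these stresses. It was lower in heat for RPL9 (-2.63), RPL15 (-1.73), RPL22 (-1.68), RPS14 (-1.54), RPL33 (-1.13), RPL27 (-1.02), RPS7 (-0.71), RPS0 (-0.59), RPL24 (-0.57) and RPL6 (-0.56), and higher for RPL36 (0.79), RPL16 (0.99) and RPS9 (2.46). All 13 have both copies on single-gene probe sets.

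Among 75 series of 4 peroxide arrays, 2 held an array that stood apart by Dixon's test: RPL15B at 90 min of naive peroxide (log2 ratio 0.11, the lowest of its series) and RPL9A at 90 min of peroxide after KCl (-0.16, the highest of its series). These arrays differ in time and are no replicates, and chance alone flags about 1 series in 20.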

How the results depend on the processing

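With each array left out in turn, the calls among the 122 genes ranged from 3 to 105 in heat, 9 to 40 in KCl, 7 to 26 between heat and KCl, 0 to 2 for heat-primed against naive cells and 0 to 1 for rich medium after KCl against untreated cells. The pairs called ranged from 1 to 19 in heat and 9 to 22 in KCl, and the naive peroxide median from -0.1282 to -0.1089. Under quantile normalization that median was -0.0984 and heat-primed against naive cells had 1 call (RPS9A). The naive peroxide median was -0.1436 with arrays shifted to a common median and -0.0807 at 15 and 30 min. Without cross-matching probe sets the large minus small subunit median was 0.0144 in heat and 0.0438 in KCl.

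Among repeats of named genes and pairs under these alternatives, 1285 kept direction and call, 62 lost a call, 8 gained one and 26 changed sign; all 26 are differences that had missed the threshold. In naive peroxide RPL4A was 0.0014 and RPL10 -0.0033 under quantile normalization, and RPL10 -0.0041 with shifted medians; with arrays left out they ranged from -0.0238 to 0.0129 and from -0.005 to 0.0278. For peroxide against rich medium after heat, the mean of probe sets gave RPL20B -0.0075 and RPS17B -0.0492, and left-out arrays gave RPL41A -0.6762 to 0.0457, RPL26B -0.5282 to 0.101, RPS14B -0.6318 to 0.3048, RPL38 -0.0673 to 0.1918 and RPS17B -0.0339 to 0.2804. After KCl, shifted medians gave RPS23B -0.0163 and RPS21A -0.0065, and left-out arrays gave RPS22A -0.6684 to 0.0025, RPL9B -0.8385 to 0.2751, RPS23B -0.0225 to 0.0452 and RPS21A -0.0177 to 0.06. For rich medium after KCl against untreated cells, RPS23A was -0.0367 with the mean of probe sets and -0.1814 without cross-matching ones, and left-out arrays gave RPL41A -1.7098 to 0.1893, RPS31 -0.022 to 0.2141 and RPS9A -0.1987 to 0.5456. The cause was not tested for any of these.

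No paired analysis was possible because the arrays carry no replicate number shared between groups beyond time. Signals near the top of the scale and 1 array per stress and time limit all of these values.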
